A study of Homo sapiens with 36 samples.

Results

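The genes described here are 43 human genes known for their work in germ cells and in meiosis. They were taken by symbol, with no measured value in the rule, and all 43 were matched through GENCODE v44 to 1 of the 58302 Ensembl gene IDs in the count tables. RNA had been sequenced from JEKO, MINO and UPN-1, which are 3 established cell lines of mantle cell lymphoma, a B-cell tumour. Cells received the vehicle DMSO or GS716054, which the series title and design text present as an inhibitor of lysine demethylase 5 (KDM5), and RNA was collected 24 or 72 hours later. Each of the 12 groups of line, treatment and time had 3 libraries labelled as biological replicates, 36 in all. The labels name no engineered allele, and every line was grown in RPMI-1640 with serum. The dose of GS716054 is not in the labels used here, and each result describes 1 cell line. The labels do not say that replicates were separate cultures, so p-values measure the spread between these libraries.

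Germline genes are silent in most somatic cells. Their promoters are often rich in CpG and are kept off by DNA methylation, by H3K9 methylation and by a repressor complex, PRC1.6, that reaches DNA through MGA with MAX and through E2F6. KDM5 enzymes remove methyl groups from lysine 4 of histone H3, a mark of active promoters, and are known repressors of germline genes, while tumours can express germline genes out of place, as the cancer-testis antigens do. In germ cells the members make piRNAs and germ granules, build the meiotic chromosome axis and its cohesin, cut and repair DNA in recombination, tie telomeres to the nuclear envelope, and control RNA and chromatin.

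Of the 43 members, 15 had 10 or more counts in at least 3 libraries, which is 34.9%, against 18113 of all 58302 gene IDs, or 31.1%. The gene IDs are of all gene types and not of protein-coding genes alone, so these shares do not compare like sets. The piRNA and germ granule genes contributed 3 of 15 (TDRD7, PLD6 and TEX19). The axis, synapsis and cohesin genes contributed 4 of 8 (SYCP2, SYCP3, SMC1B and STAG3), and the recombination genes 3 of 6 (DMC1, MEI1 and RNF212). Of the telomere attachment genes 1 of 3 passed (MAJIN), of the RNA-binding and meiotic progression genes 2 of 5 (MEIOC and TEX14), and of the chromatin and transcription genes 2 of 5 (CTCFL and PRAME). The only metabolic member, SLC25A31, did not pass. A gene could pass through 1 line alone, and the tests held 12 of these members for JEKO, 9 for MINO and 13 for UPN-1.

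The other 28 members stayed near or at 0 with and without GS716054. For 11 of them, TDRD5, TDRD9, PIWIL1, ASZ1, SYCP1, RAD21L1, TERB2, ADAD1, BRDT, DPPA2 and DPPA4, no read was counted in all 36 libraries. With a floor of 3 reads, that leaves room for levels up to 0.341 CPM in the shallowest library and 0.2 CPM in the deepest, counting error alone. CPM is the read count of a gene scaled to the reads in all genes of the library. The remaining 17 were DDX4, MAEL, TDRD1, TDRD6, PIWIL2, PIWIL4, MOV10L1, STK31, HORMAD1, HORMAD2, SPO11, MEIOB, TEX15, TERB1, DAZL, BOLL and SLC25A31, and their highest count in any library was 28, for the RNA helicase gene MOV10L1 in a JEKO DMSO library at 72 h. Summed over the 28 members, the 6 DMSO libraries and the 6 GS716054 libraries of a line held 102 and 89 counts in JEKO, 50 and 51 in MINO, and 41 and 58 in UPN-1. Single genes had more counts in one arm or the other. The low-count filter left these 28 genes out of the tests, and the alternative fit without that filter held those with counts. DAZL, an RNA-binding regulator of germ cells, had 13 counts over the MINO DMSO libraries and 32 over the treated ones. In JEKO DAZL had 6 and 17, and in UPN-1 it had none. PIWIL2, a piRNA-binding protein, had 17 and 3 in JEKO. MOV10L1 had 42 and 20 there, and 28 of the 42 came from 1 library. A response of these 28 genes was not detectable at this depth.

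Among the 15 members above that level, levels differed widely by line, as the heat map of levels shows. In DMSO, 14 of the 15 differed among the lines, all but SYCP3 (edgeR quasi-likelihood test, adjusted p under 0.05). Of all 17980 genes tested, 81.2% did so, and the count is therefore not read as a trait of the members. A member such as CTCFL passed the count rule through JEKO alone, so its difference among lines was fixed in advance. CTCFL, the testis paralog of the insulator protein CTCF, had 364 ± 61.3 CPM (SD, n = 6) in JEKO DMSO libraries and 0 counts in all 24 libraries of MINO and UPN-1. Each n of 6 pools the DMSO libraries of 24 and 72 h, so the SD also holds any change between times. For CTCFL in JEKO the DMSO means were 414 CPM (SD 23.7) at 24 h and 313 CPM (SD 34.1) at 72 h, n = 3 each. PRAME, a cancer-testis antigen, had 238 ± 28.2 CPM in JEKO, 1 count over the 12 MINO libraries, and 1.44 ± 1.20 CPM in UPN-1 (SD, n = 6 each). PLD6 ran the other way, with 34.2 ± 6.38 CPM in MINO, 2.45 ± 0.666 in UPN-1 and 0.323 ± 0.273 in JEKO, and SMC1B was at or below 0.372 CPM in every JEKO library. Per kilobase of exon and averaged over the 36 libraries, PRAME (18.8 CPM per kb) and CTCFL (14.3) were the most abundant members, followed by PLD6 (4.09) and TDRD7 (3.53). SYCP2 (0.0784) and TEX14 (0.0741) were the least. The order depended on the line. PRAME led in JEKO with group means of 49.5 to 65.9 CPM per kb, PLD6 in MINO with 7.68 to 15.5, and TDRD7 in UPN-1 with 3.21 to 4.07.

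**Figure D1:**
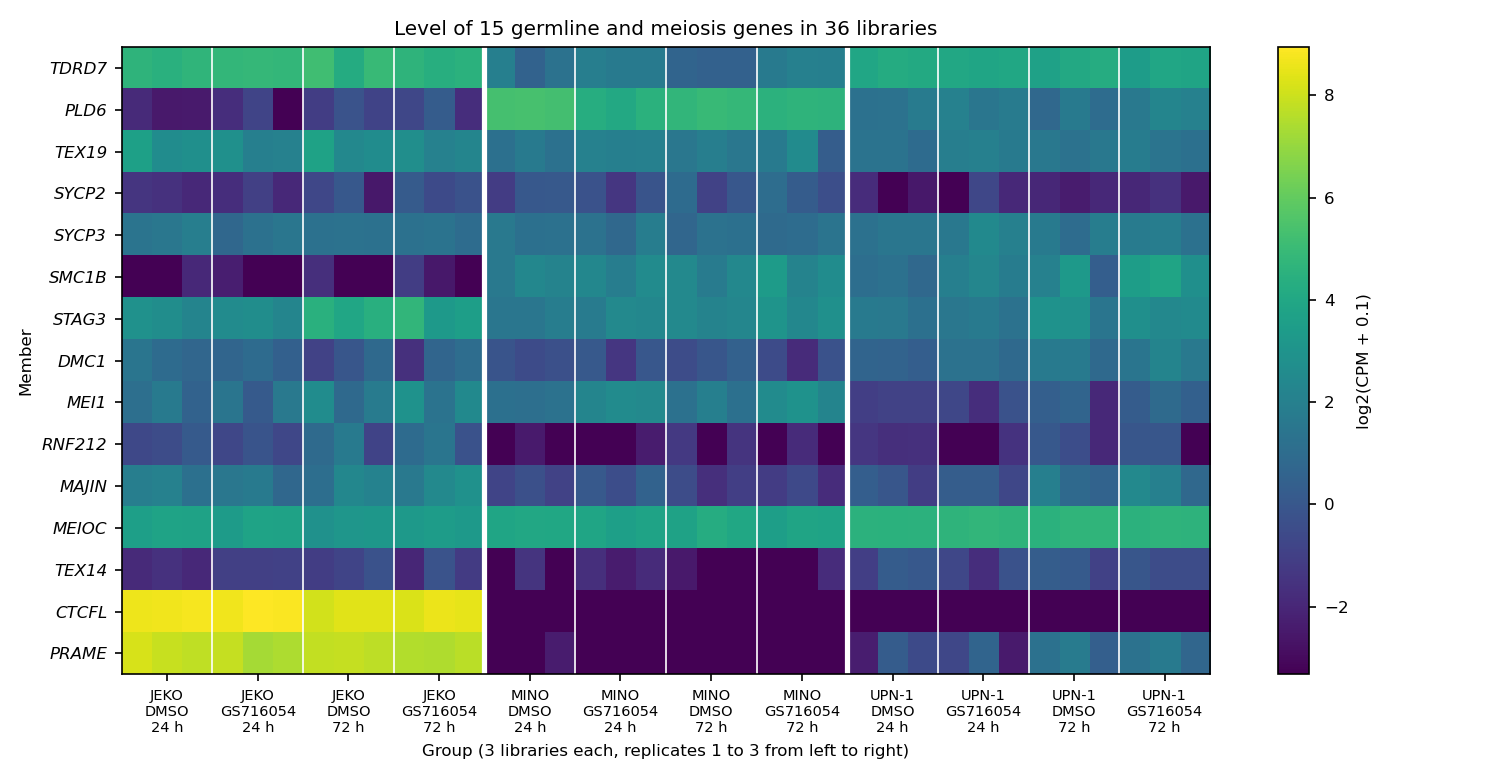
Heat map of log2(CPM + 0.1) for the 15 members with 10 or more counts in at least 3 libraries (rows) in 36 libraries (columns, 3 per group, thick white lines between cell lines). CTCFL and PRAME are bright in JEKO alone, PLD6 is brightest in MINO, and columns of 1 line look alike whether treated or not.

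Across the 6 comparisons of GS716054 with DMSO, few members passed the test, and in the models without a replicate block, with the low-count filter and all 12 libraries of a line, all calls fell in MINO. The call was made on adjusted p under 0.05, with the Benjamini-Hochberg method applied to every gene tested and not to the members alone. In JEKO 0 of 12 members were called at 24 h, where 0.018% of all genes were, and 0 of 12 at 72 h, where 0.3% were. In UPN-1 0 of 13 were called at 24 h (0.0262% of all genes) and 0 of 13 at 72 h (0.334%). DESeq2 also called 0 in each of these. At an unadjusted p under 0.05 there was 1 member in JEKO at 24 h (PRAME), 0 in JEKO at 72 h, 1 in UPN-1 at 24 h (TEX19) and 2 in UPN-1 at 72 h (PLD6 and SMC1B). In MINO 2 of 9 were called at 24 h, MEI1 higher and PLD6 lower, where 2.39% of all genes were called. At 72 h 2 of 9 were called, MEI1 and TDRD7, both higher, where 5.56% of all genes were called and 3.51% were called higher. The counts of 0 in JEKO and UPN-1 are thus near the share of all genes, and the share of members in MINO was above it, with no test of that share. At 24 h the tested members had a median log2 fold change of -0.16 (JEKO), 0.19 (MINO) and 0.22 (UPN-1). For 72 h these medians were 0.05, 0.16 and 0.06, while medians over all genes lay between -0.03 and 0.01.

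**Figure D2:**
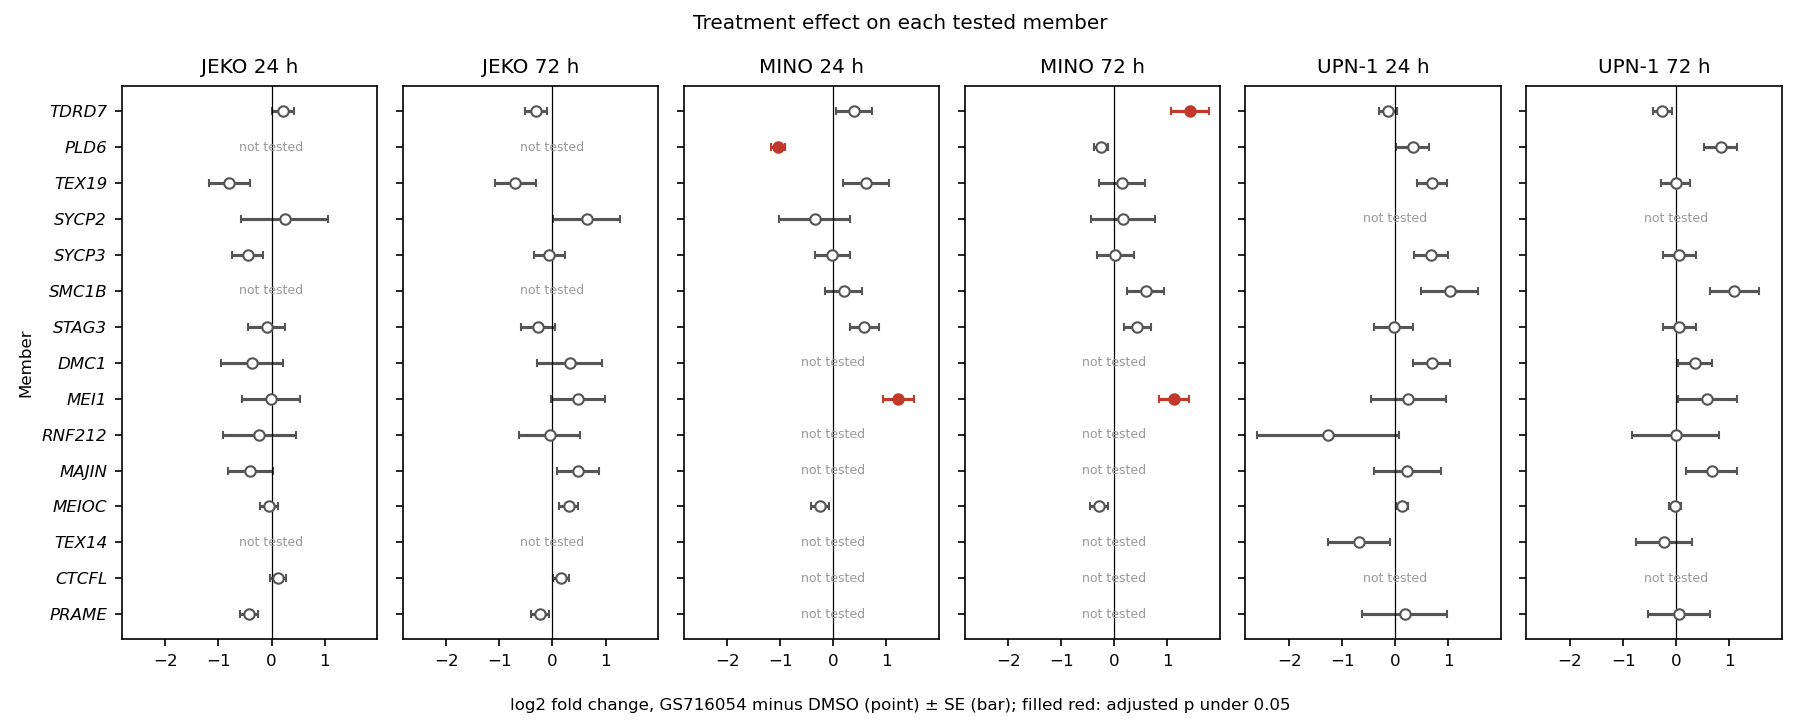
Log2 fold change of GS716054 against DMSO (point) with its standard error (bar) for each of the 15 members in each line and time, from edgeR models of the 12 libraries of a line. Filled red points passed the adjusted threshold, and they are PLD6 and MEI1 in MINO at 24 h and TDRD7 and MEI1 in MINO at 72 h.

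Among the piRNA and germ granule genes, PLD6 fell in MINO at 24 h. PLD6 lies at chr17:17200995-17206333 (minus strand, GRCh38) and encodes an enzyme of the mitochondrial surface that takes part in making piRNAs. Its level was 40.0, 41.1 and 38.6 CPM in the DMSO libraries and 20.1, 16.8 and 22.5 CPM in the treated ones. All 3 treated libraries lay far below all 3 controls. The log2 fold change was -1.04 with a standard error of 0.133 (edgeR, adjusted p = 0.00414), and leaving out any 1 of the 6 libraries left it between -1.16 and -0.94 with adjusted p from 0.007 to 0.0322. In bulk RNA, fewer cells with the transcript and less transcript per cell cannot be told apart.

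At 72 h in MINO PLD6 stood at 26.4, 30.2 and 29.1 CPM in DMSO and 23.7, 25 and 24.4 CPM with GS716054. The groups still did not overlap, but their log2 difference was -0.24 (standard error 0.132, adjusted p = 0.304). The change of effect from 24 to 72 h, 0.80 on the log2 scale, had an adjusted p of 0.594 in edgeR and was called by DESeq2. By edgeR 0 members were called for this change of effect in any line, where 0.0133% of all genes were called in MINO and 0% in JEKO and UPN-1. PLD6 in MINO was the 1 member at an unadjusted p under 0.05, and the 1 call by DESeq2.

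In UPN-1 PLD6 went the other way, without passing the test. Its 72 h values were 1.66, 3.18 and 1.89 CPM in DMSO and 3.06, 4.71 and 4.13 CPM in treated libraries, which overlap slightly (log2 fold change 0.84, standard error 0.312, adjusted p = 0.47). The effect of GS716054 on PLD6 at 24 h was not called as different among the lines (adjusted p = 0.214; 0 of 15 members and 0.106% of all genes called, with 3 members at an unadjusted p under 0.05). It was called with the replicate number as a block in each line (adjusted p = 0.0421, where 1.37% of all genes were called), and with the block within each line and time (0.00695, where 5.74% were). At 72 h the adjusted p was 0.432 without a block and 0.0416 with the block within each time, where PLD6 and TDRD7 were the 2 members called and 9.78% of all genes were. In GENCODE 6.8% of the exon bases of PLD6 overlap MPRIP on the other strand, and 17.5% overlap a transcript on the same strand.

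TDRD7 was higher with GS716054 than with DMSO in MINO at 72 h. It lies at chr9:97412096-97496125 (plus strand) and encodes a tudor domain protein of germ granules that is also needed in the lens of the eye. Its level was 1.46, 1.29 and 1.31 CPM in DMSO and 3.18, 3.99 and 3.88 CPM with GS716054, so that each treated library was above each control. The log2 fold change was 1.43 (standard error 0.349, adjusted p = 0.0324 in edgeR). Counts were low, from 12 to 44 reads a library, and in 4 of the 6 fits without 1 library the adjusted p was above the threshold (range over the 6, 0.0478 to 0.107). Without replicate 2 of both arms, the MINO libraries that stood apart at 72 h, the fold change was 1.32 with an adjusted p of 0.0535. With the block in the line the edgeR adjusted p was 0.021, and the share of all genes called there is not given here. With the block within each time it was 0.0105, where 20.2% of all genes were called.

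Estimates for TDRD7 at 72 h were negative in the other lines and not called. In JEKO at 72 h it was 36.2, 18.3 and 30.3 CPM in DMSO and 25.5, 20.3 and 22.7 CPM in treated libraries (log2 fold change -0.30, adjusted p = 0.788). In UPN-1 it was 12.8, 16.9 and 18.9 CPM against 10.8, 15.1 and 14.3 CPM (-0.26, adjusted p = 0.875). Groups overlapped widely in both lines. Over their DMSO libraries of 24 and 72 h together, these lines held 26.2 ± 6.36 and 16.6 ± 2.34 CPM, against 1.95 ± 1.03 in MINO (SD, n = 6 each). Without a block TDRD7 was the only member whose effect at 72 h was called as different among lines (1 of 15, against 1.01% of all genes; adjusted p = 0.012), and without MINO DMSO replicate 3 that adjusted p was 0.0549. In MINO at 24 h, DMSO libraries spread from 1.37 to 3.88 CPM and treated ones from 3.15 to 3.70 CPM (0.38, adjusted p = 0.602). From 24 to 72 h the mean in MINO went from 2.54 to 1.35 CPM in DMSO and from 3.34 to 3.69 CPM with GS716054. Whether the lower DMSO mean had a part in the contrast at 72 h was not tested. That DMSO change was not called (edgeR with the block in the line, log2 fold change -0.855, adjusted p = 0.132).

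TEX19, a mammalian gene that restrains retrotransposons in germ cells, was not called in any of the 6 comparisons, and its estimates had opposite signs at 24 h in JEKO and UPN-1. Its library values are given because of a call across lines with a block, a choice made after they were seen. In JEKO at 24 h it was 12.6, 6.09 and 6.89 CPM in DMSO and 7.01, 3.84 and 4.13 CPM with GS716054, lower in each same-numbered library (log2 fold change -0.79, standard error 0.390, adjusted p = 1). In UPN-1 at 24 h it was 2.41, 2.46 and 1.83 CPM against 3.72, 3.91 and 3.25 CPM (0.69, standard error 0.280, unadjusted p = 0.0249, adjusted p = 1). The difference among lines at 24 h had an adjusted p of 0.428 without a block and 0.0545 with the block in each line. It was 0.0172 with the block within each time, where 2 members, TEX19 and PLD6, were called. Exons of an antisense gene cover 43.8% of its exon bases, and whether the counting used strand was not given, so part of these reads may belong to that gene.

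Among the recombination genes MEI1 rose in MINO at both times. MEI1, at chr22:41699503-41799456 (plus strand), is needed to form the DNA breaks that start meiotic recombination. At 24 h in MINO its level was 2.24, 2.14 and 2.38 CPM in DMSO and 4.68, 6.03 and 5.41 CPM with GS716054 (log2 fold change 1.22, standard error 0.287, edgeR adjusted p = 0.0448). At 72 h it was 2.31, 3.86 and 2.22 CPM against 6.01, 7.63 and 4.55 CPM (1.12, standard error 0.280, adjusted p = 0.0347). At both times every treated library was above every control. The calls lay close to the threshold, for in each of the 6 fits without 1 library at 24 h the adjusted p rose to between 0.0914 and 0.201, and at 72 h 4 of the 6 fits lost the call (range 0.0119 to 0.13). The estimates in those fits ran from 1.13 to 1.30 and from 0.92 to 1.37. With the block in the line the edgeR adjusted p was 0.0231 at 24 h and 0.0187 at 72 h, and the share of all genes called there is not given here. With the block within each time it was 0.00706 and 0.00769, where 15.8% and 20.2% of all genes were called.

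Elsewhere MEI1 varied more between replicates than between treatments. JEKO libraries at 72 h held 6.08, 1.74 and 3.33 CPM in DMSO and 7.45, 2.46 and 5.64 CPM when treated, higher in each same-numbered library but with overlapping ranges (log2 fold change 0.48, standard error 0.506, adjusted p = 0.914). UPN-1 libraries at 72 h held 1.19, 1.45 and 0.164 CPM against 1.10, 1.81 and 1.25 CPM (0.58, adjusted p = 0.964). At 24 h the estimates were -0.01 in JEKO and 0.25 in UPN-1. Averaged over the 3 lines, MEI1 had a log2 fold change of 0.73 at 72 h (standard error 0.279, adjusted p = 0.137). With the replicate block in each line it was 0.74 with an adjusted p of 0.0673. With the block within each time, it was 0.75 with an adjusted p of 0.0223, the only member called of 15, where 16.7% of all genes were called and 8.21% were called higher. Without a block 0 of 15 members were called for the mean over lines at 24 h (0.929% of all genes) and 0 at 72 h (4.66%), with 0 and 2 at an unadjusted p under 0.05 and 0 by DESeq2. The effect on MEI1 was not called as different among lines (adjusted p = 0.906 at 24 h and 0.944 at 72 h).

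The other recombination genes that passed, DMC1 and RNF212, were not called. DMC1 encodes the meiosis-specific strand exchange protein, and its libraries ranged from 0.182 to 4.47 CPM over the 3 lines. It was not tested in MINO, and its log2 fold changes in UPN-1 were 0.68 at 24 h and 0.36 at 72 h (adjusted p = 1 and 0.956). RNF212, a ligase that marks crossover sites, had at most 3.16 CPM, and its estimates carried standard errors of 0.577 to 1.34.

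Among the axis and cohesin genes the cohesin subunit SMC1B was higher in UPN-1 with GS716054 by estimate, and whether it was called depended on the fit. SMC1B (chr22:45344063-45413619, minus strand) replaces SMC1A in meiotic cohesin. UPN-1 libraries at 72 h held 4.12, 10 and 1.15 CPM in DMSO and 11.1, 14 and 6.86 CPM with GS716054. The treated value was higher in each same-numbered library, and the controls spread almost as widely as the whole comparison. The log2 fold change was 1.09 (standard error 0.466, adjusted p = 0.596) without a block, 1.24 (adjusted p = 0.0597) with the block in the line, and 1.27 (standard error 0.246, adjusted p = 0.00248) with the block within each time, where SMC1B was the 1 call among 13 members, 7.47% of all genes were called and 4.18% were called higher. Without DMSO replicate 2, the highest control, the adjusted p was 0.0324 without any block, and it was 0.00857 without the low-count filter. Without both libraries of replicate 3 the log2 fold change was 0.84 with an adjusted p of 0.613.

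At 24 h in UPN-1 SMC1B was 2.03, 2.25 and 1.69 CPM in DMSO and 3.83, 4.83 and 3.50 CPM with GS716054, with no overlap, yet it was not called (log2 fold change 1.03, standard error 0.542, adjusted p = 1). In MINO the values at 72 h were 5.31, 3.32 and 5.16 CPM against 10.6, 4.45 and 6.16 CPM (0.59, adjusted p = 0.345), which overlap. The plot of normalised counts for these members shows the same pattern of spread.

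**Figure D3:**
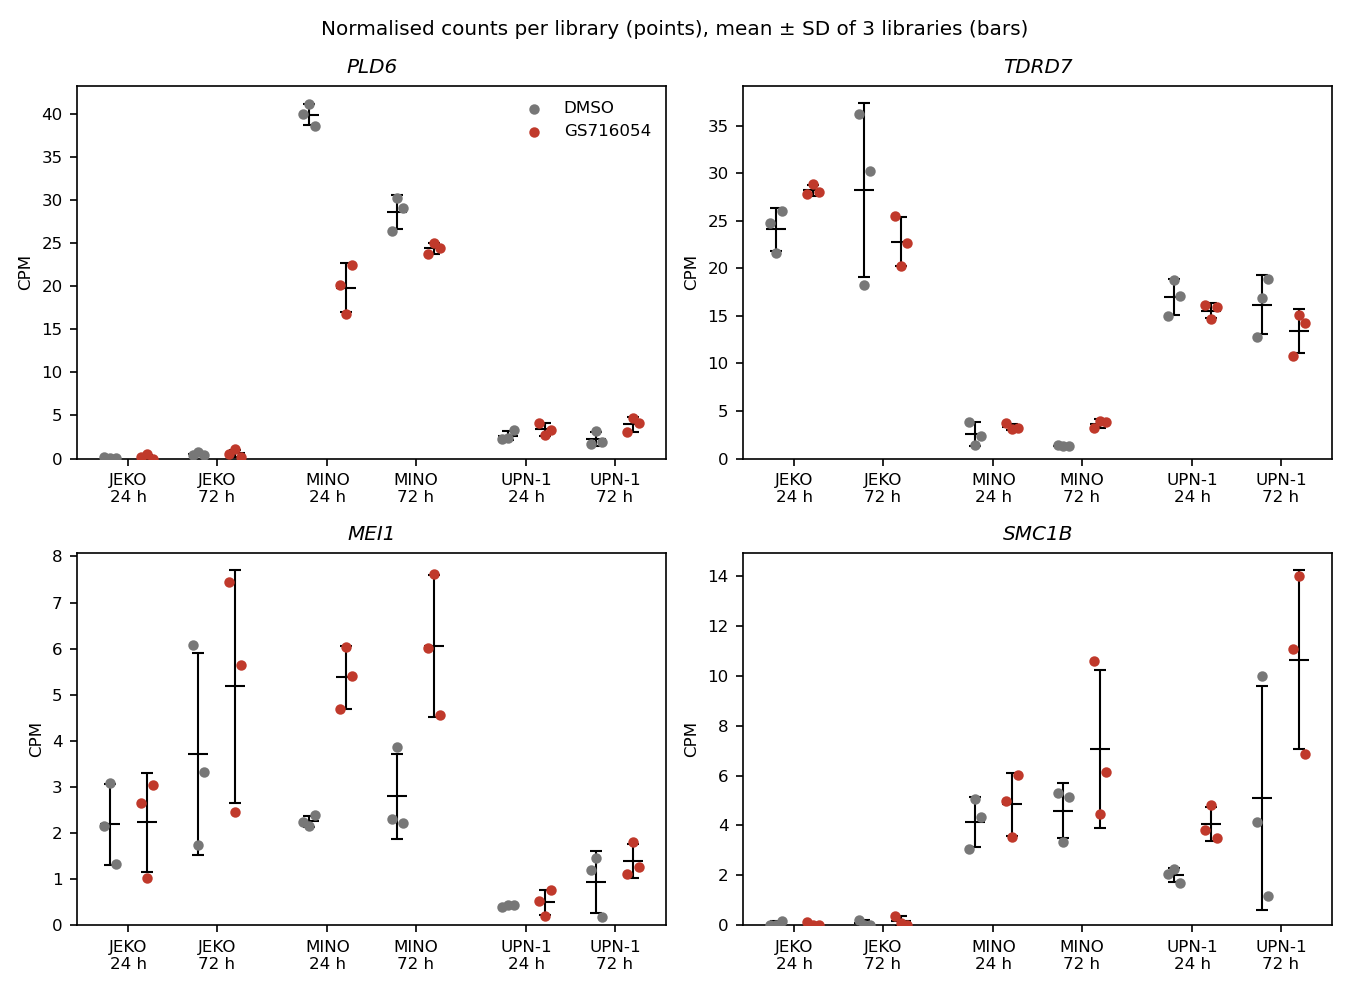
Normalised counts (CPM) of PLD6, TDRD7, MEI1 and SMC1B in each library (points, grey for DMSO and red for GS716054), with the mean and SD of 3 libraries (bars), by line and time. PLD6 in MINO at 24 h is 40.0 CPM in DMSO and 20.1 CPM with GS716054 in replicate 1, TDRD7 at 72 h and MEI1 at both times are higher in treated MINO libraries, and SMC1B controls of UPN-1 at 72 h reach from 1.15 to 10 CPM.

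The remaining axis genes were not called by treatment. STAG3, the meiotic cohesin subunit that takes the place of STAG1 and STAG2, had log2 fold changes of 0.58 and 0.44 in MINO at 24 and 72 h (standard errors 0.268 and 0.255, adjusted p = 0.28 and 0.343). In MINO at 24 h its libraries held 2.71, 2.74 and 3.52 CPM in DMSO and 3.37, 5.29 and 5.05 CPM when treated. In JEKO and UPN-1 its 4 estimates lay between -0.28 and 0.06. SYCP3, part of the axial element, stayed between 1.54 and 5.55 CPM in all libraries and was the member that did not differ among lines. Its largest estimate was 0.68 in UPN-1 at 24 h (standard error 0.320, adjusted p = 1). SYCP2, its partner, had at most 24 counts in a library. Annotated genes on the other strand cover 20.8% of the exon bases of STAG3 (CASTOR3P) and 14.8% of those of SYCP3 (CHPT1), so both counts are uncertain.

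MAJIN, which anchors telomeres in the nuclear envelope, was tested in JEKO and UPN-1 and not called. Its library values were chosen for print after they were seen. Its JEKO libraries at 72 h held 2.03, 4.98 and 4.29 CPM in DMSO and 3.05, 5.35 and 7.30 CPM with GS716054, and its UPN-1 libraries 3.80, 1.73 and 1.39 against 5.41, 3.93 and 1.64 CPM. Each treated library was above the control of the same number, and the groups overlapped (log2 fold changes 0.48 and 0.67, adjusted p = 0.857 and 0.898). In JEKO at 24 h each treated library was below its control instead (3.67, 4.16 and 2.24 CPM in DMSO, 2.84, 3.23 and 1.6 CPM treated, -0.40, adjusted p = 1).

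The most abundant members did not respond by the test. CTCFL in JEKO held 393, 410 and 440 CPM in DMSO and 407, 492 and 461 CPM with GS716054 at 24 h, and 274, 333 and 332 against 306, 380 and 358 CPM at 72 h. Both pairs of groups overlapped, with log2 fold changes of 0.12 and 0.16 and a standard error of 0.148 in each (adjusted p = 1 and 0.898). PRAME in JEKO held 291, 243 and 218 CPM against 236, 155 and 175 CPM at 24 h, lower in each same-numbered library (-0.42, standard error 0.170, unadjusted p = 0.0262, adjusted p = 1). At 72 h it held 225, 235 and 214 CPM against 187, 180 and 201 CPM, with every treated library below every control (-0.24, adjusted p = 0.807). MINO and UPN-1 libraries with GS716054 had no count of CTCFL, and PRAME had none in the treated MINO libraries.

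MEIOC, which with YTHDC2 carries germ cells into meiotic prophase, was present in all 3 lines and not called. A gene on the other strand covers 21.2% of its exon bases, so its count is uncertain. In UPN-1 it held 23.7, 22.9 and 23.5 CPM in DMSO and 25.5, 26.7 and 24.8 CPM at 24 h with GS716054 (log2 fold change 0.13, standard error 0.116, adjusted p = 1). In MINO it held 13.5, 18.9 and 15.9 CPM against 11.7, 14.4 and 13.8 CPM at 72 h (-0.28, standard error 0.165, adjusted p = 0.338). In JEKO it held 7.38, 8.54 and 8.80 CPM against 9.61, 10.9 and 9.91 CPM at 72 h, without overlap (0.30, standard error 0.171, adjusted p = 0.71). TEX14, a protein of the bridges between germ cells, was tested in UPN-1 alone, where it reached at most 1.11 CPM and was not called.

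**Figure D4:**
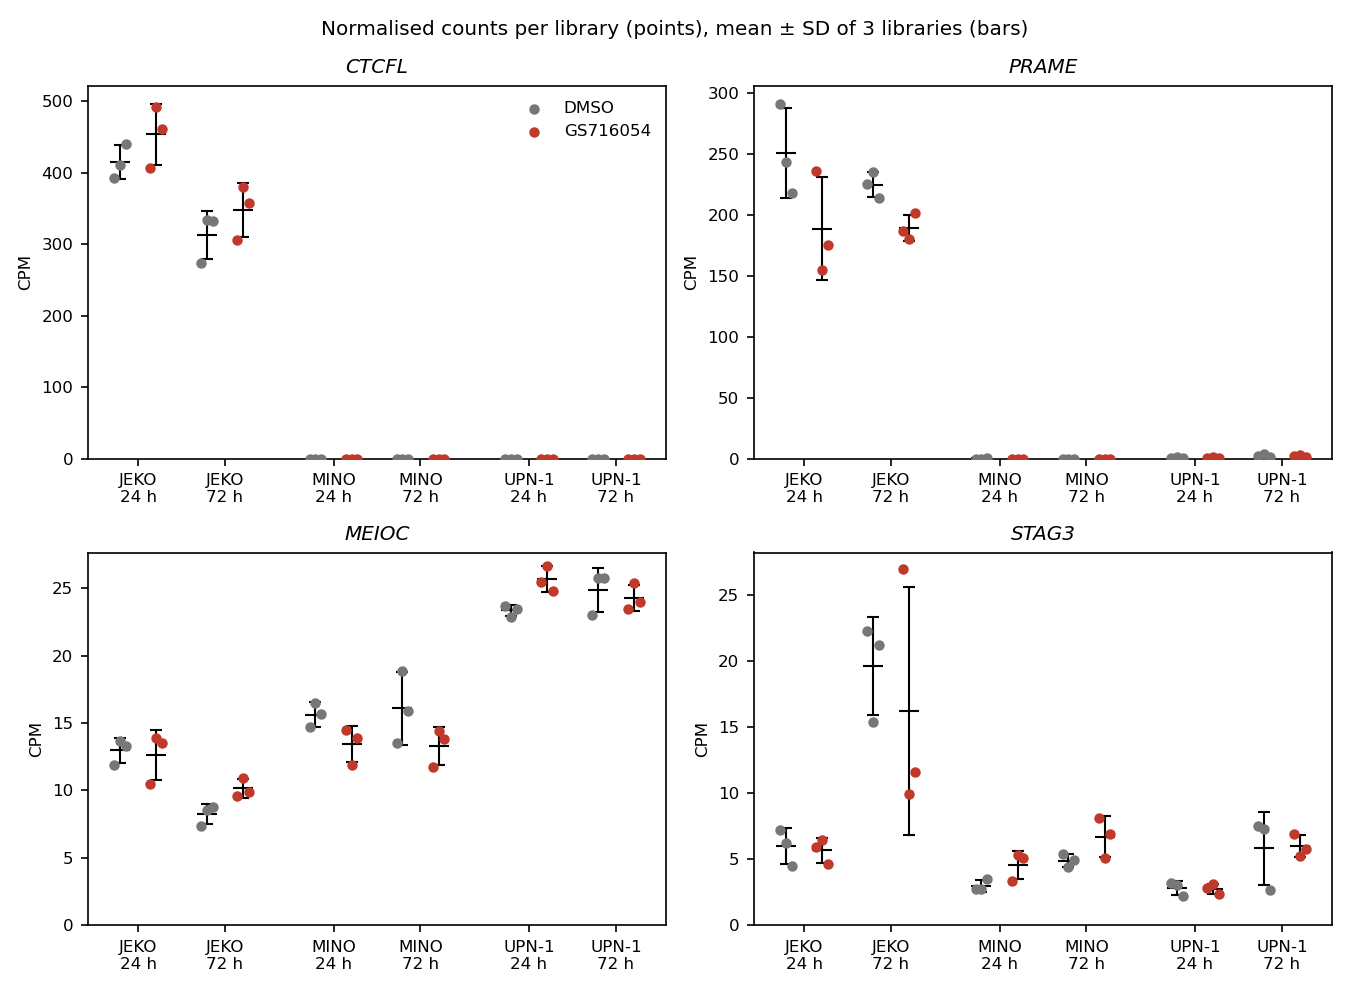
Normalised counts (CPM) of CTCFL, PRAME, MEIOC and STAG3 in each library (points, grey for DMSO and red for GS716054), with the mean and SD of 3 libraries (bars), by line and time. CTCFL and PRAME are at 155 CPM or more in JEKO and near 0 elsewhere, and STAG3 in JEKO is higher at 72 h than at 24 h in both arms.

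Some members differed between DMSO cultures at 72 h and at 24 h. The comparison was added after the values were seen, and it shares its control libraries with the treatment comparisons. In JEKO 2 of 12 members were called, where 31.7% of all genes were. STAG3 rose from 7.24, 6.25 and 4.48 CPM to 22.3, 15.4 and 21.2 CPM (log2 fold change 1.71, standard error 0.336, adjusted p = 0.00291). MEIOC fell from 11.9, 13.7 and 13.3 CPM to 7.38, 8.54 and 8.80 CPM (-0.65, standard error 0.171, adjusted p = 0.0119). In UPN-1 0 of 13 were called (1.47% of all genes) and in MINO 0 of 9 (0.0932%), with 5 and 3 at an unadjusted p under 0.05 and 1 and 1 by DESeq2. STAG3 in UPN-1 went from 3.19, 3.00 and 2.2 CPM to 7.53, 7.27 and 2.62 CPM (1.07, adjusted p = 0.089). Without DMSO replicate 3 at 72 h, 6 members were called in UPN-1, namely SMC1B, STAG3, DMC1, MEI1, MAJIN and PRAME, all higher at 72 h. In that fit 19.6% of all genes were called. The library left out had the lowest value of its group for each of these 6 members. Leaving it out thus raised their 72 h levels by itself, and no conclusion is drawn from these calls. With the replicate number as a block in the line, 5 members were called in UPN-1 (SMC1B, STAG3, DMC1, MAJIN and PRAME, where 18.3% of all genes were). The same block added PLD6 in MINO (-0.48, adjusted p = 0.0377, where 12.1% were) and CTCFL in JEKO (-0.41, adjusted p = 0.0237, where 36.8% were). Whether the numbers pair libraries across times was not tested.

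Promoter sequences from RefSeq (GRCh38.p14) were available here for 35 of the members in 47 windows of 250 bases before a transcript start. HORMAD1, TEX19, MEIOB, PLD6, TEX15, TEX14, PIWIL4 and PIWIL2 had no entry. The windows below belong to the members called in at least 1 treatment comparison, with or without a block, that had an entry. Capitals mark the core E2F motif GCGGGA or its reverse complement TCCCGC, and the E-box CACGTG read by MAX and MGA was searched too. MEI1 (chr22:41699253-41699502, plus strand) had no match to either, TDRD7 (chr9:97411846-97412095, plus strand) had 1 E2F core 215 bases before the start, and SMC1B (chr22:45413620-45413849, minus strand) had 2, at 120 and 25 bases before the start. The SMC1B window is printed without its last 20 bases, which GENCODE places in the gene, and the nearer match runs into them.

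MEI1: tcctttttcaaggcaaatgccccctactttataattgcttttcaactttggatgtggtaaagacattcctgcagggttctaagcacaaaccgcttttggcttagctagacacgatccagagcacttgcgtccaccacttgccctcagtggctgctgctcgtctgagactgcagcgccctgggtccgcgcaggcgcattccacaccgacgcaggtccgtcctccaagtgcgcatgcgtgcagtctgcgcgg

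TDRD7: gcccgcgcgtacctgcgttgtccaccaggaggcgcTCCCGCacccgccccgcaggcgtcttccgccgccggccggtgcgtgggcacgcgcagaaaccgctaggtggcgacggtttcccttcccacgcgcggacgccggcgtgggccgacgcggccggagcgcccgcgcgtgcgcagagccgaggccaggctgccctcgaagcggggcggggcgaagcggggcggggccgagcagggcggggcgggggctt

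SMC1B: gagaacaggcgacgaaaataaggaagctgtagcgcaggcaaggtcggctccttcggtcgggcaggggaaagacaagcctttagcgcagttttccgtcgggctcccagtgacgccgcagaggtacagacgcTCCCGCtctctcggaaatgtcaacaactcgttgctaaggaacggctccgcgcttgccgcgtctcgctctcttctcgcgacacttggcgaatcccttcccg

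The E-box stood in 21.3% of the members' windows and in 6.34% of all 35116 windows of that length. Among the members it stood in 30% of windows of genes that stayed under the count rule (9 of 30, belonging to BRDT, DAZL, MAEL, SLC25A31, STK31, TDRD1 and TDRD5) and in 5.88% of windows of genes that passed (1 of 17, STAG3). The E2F core stood in 34% of the members' windows and 23.5% of all windows, with 41.2% for genes that passed and 30% for genes that did not. The median ratio of observed to expected CpG was 0.78 for the members and 0.56 for all windows, and it was 0.79 for MEI1, 1.12 for TDRD7 and 1.27 for SMC1B. These shares describe letters in a window, and several windows belong to the same gene.

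Other genes of the germline and of its control were counted in lists. Of 54 further meiosis and germline genes, 53 were matched and 20 to 24 were tested in a line. Only CNTD1, a cyclin-like gene of crossover formation, was called in the 6 treatment comparisons, in MINO at 72 h. There 5.56% of all genes were called. CNTD1 went from 22.7, 19.7 and 22.9 CPM to 35.3, 30.1 and 33.4 CPM (edgeR, log2 fold change 0.58, adjusted p = 0.0207). For the mean over lines at 72 h, 2 of 25 were called, where 4.66% of all genes were, with no test of that share. REC8, the meiotic kleisin of cohesin, was higher (0.54, adjusted p = 0.0188) and MND1, a partner of DMC1, was lower (-0.69, adjusted p = 0.0283), and both are named after their values were seen. With the block within each time, the list had 1 call in JEKO at 72 h (where 3.34% of all genes were called), 2 and 6 in MINO at 24 and 72 h (15.8% and 20.2%), and 1 and 6 in UPN-1 (1.5% and 7.47%). Of 40 cancer-testis antigens, 39 were matched, of which JEKO had 5 that could be tested, MINO 0 and UPN-1 1. By edgeR 0 were called in any line, with 1 at an unadjusted p under 0.05 in JEKO at each time. The block within each time called 1, SSX4, lower in JEKO at 72 h, where 3.34% of all genes were called. SSX4 has a near-identical copy, and its count is uncertain.

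Of 25 genes for repressors of the germline programme, 24 were tested in each line and ATF7IP, a partner of the H3K9 methylase SETDB1, was the only call. It fell in MINO at 24 h from 99.6, 65.2 and 85.5 CPM to 36.9, 45.4 and 38.0 CPM (log2 fold change -1.08, edgeR adjusted p = 0.0146, where 2.39% of all genes were called). It fell in UPN-1 at 24 h from 118, 104 and 111 CPM to 38.9, 41.5 and 44.8 CPM (-1.42, adjusted p = 0.000657, where 0.0262% of all genes were called). It also fell there at 72 h (-0.98, adjusted p = 0.00971, where 0.334% of all genes were called). In JEKO the estimates were -0.19 and -0.57 (adjusted p = 1 and 0.373), and the difference among lines at 24 h had an adjusted p of 0.0694. With the block within each time ATF7IP was also called lower in JEKO at 72 h (-0.54, adjusted p = 0.025) and in MINO at 72 h (-0.63, adjusted p = 0.0145), and the list had 2 calls in JEKO at 72 h (3.34% of all genes called), 7 and 5 in MINO at 24 and 72 h (15.8% and 20.2%), and 3 and 2 in UPN-1 (1.5% and 7.47%). Of 9 genes of mitotic cohesin and shared repair, SMC3, a core cohesin subunit of both mitosis and meiosis, was the only call. It was lower in MINO at 72 h (-0.48, adjusted p = 0.0361, where 5.56% of all genes were called). The block made that 2 calls there (20.2% of all genes) and 3 in MINO at 24 h (15.8%), all lower.

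The targeted family itself was not called in the fits without a block. KDM5A and KDM5C had log2 fold changes between -0.10 and 0.32 in the 6 comparisons. KDM5B went from 34.0, 56.6 and 35.1 CPM to 61.9, 106 and 64.0 CPM in MINO at 24 h, higher in each same-numbered library (0.85, standard error 0.578, adjusted p = 0.478). With the block within each time it was called there (0.85, standard error 0.106, adjusted p = 0.000252) and in UPN-1 at 72 h (0.40, adjusted p = 0.00457). KDM5D was not called in any of them. An inhibitor of an enzyme need not change its transcript, so these levels do not check the treatment.

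Libraries held 8784815 to 14970876 reads in genes, with a median of 11926903. B-cell markers were present in all 3 lines, among them CD79A at 290 CPM or more in every JEKO library, while CD5 was at 0.834 to 6.04 CPM in UPN-1. In MINO MS4A1 and CD79B were higher with GS716054 at 24 h and MS4A1 and CD79A at 72 h (log2 fold changes 0.69, 0.69, 0.77 and 1.07). Other B-cell markers went down, such as CCND1 in JEKO at 24 h (2540, 2680 and 2610 CPM in DMSO, 1720, 1320 and 1650 CPM treated). Summed over 8 B-cell markers at 24 h, JEKO held 4140 to 4410 CPM in DMSO and 2840 to 3510 CPM treated. MINO held 4630 to 5580 and 7110 to 7340 CPM. Summed over 4 markers each, T-cell genes reached at most 9.11 CPM and myeloid genes at most 6.58 CPM in a library, CD2 and FCGR3A had 0 counts throughout, and epithelial genes, mostly EPCAM, reached 16 CPM. In MINO the myeloid sum was 0 to 2.00 CPM in DMSO and 0.182 to 6.58 CPM in treated libraries. Its LYZ was called there only with the block within each time (log2 fold change 1.85 at 24 h and 4.33 at 72 h, adjusted p = 0.0215 and 0.0147), and the part of these markers in the MINO results was not tested. At 72 h the summed T-cell genes of JEKO were 1.01 to 1.58 CPM in DMSO and 4.96 to 9.11 CPM in treated libraries (CD3D adjusted p = 0.0515 without a block and 0.0103 with the block within each time). The summed epithelial genes of UPN-1 at 72 h, where SMC1B was called with a block, were 1.31 to 2.27 CPM in DMSO and 3.04 to 6.74 CPM in treated libraries, and their part in that result was not tested. At 72 h replicate 1 of JEKO and replicate 2 of MINO stood apart on the first principal component in both arms, and replicate 3 of UPN-1 had the lowest value in both arms.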

How the data were processed

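RNA-seq was measured in 36 libraries of 3 cell lines. The authors deposited 1 table of raw read counts per gene and library. Reads were aligned with HISAT2 2.2.1 and counted with HTSeq 0.13.5 on GRCh38, per the submitters' processing notes, and RNA came from a Qiagen mRNA kit, per the labels' protocols. The strand setting, the annotation and the options of the counting are not given in the sources used here. Reads outside annotated genes (43.25% to 45.93% of all reads) and the other summary lines were left out.

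Gene IDs were named with GENCODE v44 (57532 of 58302 found). Counts were tested in R 4.3.3 with edgeR 4.0.16 (quasi-likelihood F test, TMM, filterByExpr at min.count 10 and min.total.count 15), with 1 model of the 12 libraries of each line for the treatment effects and 1 of all 36 for comparisons across lines. Adjusted p-values are Benjamini-Hochberg over all genes tested, with a threshold of 0.05. Standard errors are the absolute log2 fold change over the square root of F. CPM are TMM-scaled over all 36 libraries and are given per replicate 1, 2 and 3 in that order. Levels of different genes were compared only per kilobase of merged exons. The models were tested on simulated data. DESeq2 1.42.0, DESeq2 size factors, other count filters, other sets of libraries, each library left out, and 2 replicate blocks were alternatives.

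By their numbers the libraries looked paired in 5 of the 6 treatment comparisons, where each same-numbered pair correlated over 0.1. Deviations from group means of same-numbered DMSO and treated libraries correlated over 0.1 in 17 of 18 pairs (0.055 to 0.593). The lowest was JEKO 24 h replicate 2. Other pairs ran from -0.521 to 0.332, with a median of -0.143. Deviations cancel within a group, so same-numbered and other pairs are not independent, and the pairing is an inference. The block within each line and time, the fits without both 72 h libraries of 1 replicate, and the DMSO time comparison were added after seeing the data. Members and lists were chosen with earlier results of these data known. Genes given library by library are those called in a treatment comparison with or without a block, and the 4 other members of highest mean CPM, and also TEX19 and MAJIN, chosen after their values were seen. Other members are given by role, and of the other lists the called genes, up to 4, are named. The results of 1 gene of the other lists are not reported here.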

Additional observations from a re-analysis of the deposited data

Results flagged for a closer look

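In the fit without a block, TDRD7 was the only member for which the effect of GS716054 differed between groups by a test of the difference itself, at 72 h among the 3 lines (edgeR quasi-likelihood F test on all 36 libraries, adjusted p = 0.012). With the block within each time PLD6 was called too, at 24 h (adjusted p = 0.00695) and at 72 h (0.0416), as was TEX19 at 24 h (0.0172), and the block in each line and DESeq2 called PLD6 at 24 h (0.0421 and 0.00584). For TDRD7 at 72 h the log2 fold change was 1.43 in MINO, -0.30 in JEKO and -0.26 in UPN-1. For TDRD7 at that time all 3 treated MINO libraries were above all 3 controls, and the groups overlapped in the other lines. The adjusted p of the TDRD7 difference among lines ranged from 0.00195 to 0.0549 when each library was left out in turn. Of those 18 fits, 17 kept the call.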

How the results depend on the processing

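Members and calls near the threshold depended on the fit, and no cause was tested. With all 36 libraries in 1 fit the count of members called was 1 in MINO at 24 h (PLD6) and 1 at 72 h (TDRD7), and with only the 6 libraries compared it was 0 at 72 h. Without both replicate 2 libraries it was 1 at 72 h (MEI1). DESeq2 gave 1 for the change of effect in MINO, 1 for the difference among lines at 24 h (PLD6 in each), and 1 each for DMSO at 72 h against 24 h in MINO (PLD6) and UPN-1 (STAG3). Without a low-count filter the count was 1 in UPN-1 at 72 h (SMC1B), 1 for the difference among lines at 24 h (PLD6) and 4 for the DMSO times in UPN-1. With the replicate block in the line it was 1 for the difference among lines at 24 h, 1 for the DMSO times in MINO and 5 in UPN-1. With the replicate block within each time it was 1 in UPN-1 at 72 h, 2 for the difference among lines at 24 h, 2 at 72 h, and 1 for the mean over lines at 72 h. In the 6 treatment comparisons the blocks changed no other member's call. For DESeq2 and for the fit without a low-count filter, the shares of all genes called are not given here. Whether their added calls only reflect fits that call more genes is therefore not shown. No value with a block is given where the blocks lie inside the groups compared (DMSO levels between lines, and DMSO times with the block within each time).

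With each library left out in turn, counts ran from 1 to 1 in MINO at 24 h, 0 to 2 in MINO at 72 h, 0 to 1 in UPN-1 at 72 h, 0 to 1 for the difference among lines at 72 h, 2 to 3 for the DMSO times in JEKO and 0 to 6 in UPN-1. They stayed at 14 for DMSO levels between lines and at 0 for the rest.

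Among the 8 members given library by library under the naming rule, signs reversed for 10 uncalled log2 fold changes (values follow). Other members changed sign too when single libraries were left out, such as TEX19 in MINO at 72 h (-0.55 to 0.54). MEI1 in JEKO at 24 h was 0.00 with all 36 libraries, 0.01 with DESeq2 and 0.00 without a filter. Leaving out single libraries, it ran from -0.32 to 0.37, MEI1 in UPN-1 at 24 h from -0.22 to 0.59, SMC1B in MINO at 24 h from -0.01 to 0.37, and PRAME in UPN-1 from -1.01 to 0.82 at 24 h and -0.25 to 0.42 at 72 h. MEIOC ran from -0.12 to 0.06 in JEKO at 24 h and -0.07 to 0.01 in UPN-1 at 72 h. STAG3 ran from -0.27 to 0.07 in JEKO at 24 h, and in UPN-1 from -0.19 to 0.08 at 24 h and -0.29 to 0.30 at 72 h. Without both replicate 3 libraries of UPN-1 at 72 h, PRAME was -0.04, MEIOC 0.01 and STAG3 -0.28. Among all recomputed values for named members, 590 kept direction and call, 8 gained a call and 20 lost one. Depth limits the 28 members near 0, for which no change was detectable.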
